A study of Mus musculus with 13 samples.

Results

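Binding of 4 transcription factors around the motor neuron genes Neurog2, Mnx1, Isl1 and Lhx3 was described from chromatin immunoprecipitation and sequencing (ChIP-seq) of mouse neural progenitors. Each gene was taken as a fixed window of the mouse build mm9, and every peak whose centre lay in a window was counted. The windows ran from 127150000 to 127500000 on chromosome 3 for Neurog2, from 29600000 to 30000000 on chromosome 5 for Mnx1, from 116900000 to 117300000 on chromosome 13 for Isl1 and from 25900000 to 26200000 on chromosome 2 for Lhx3. They held 18 of the 23280 deposited peaks, of which 10 were from the Olig2 list, 3 each from the Nkx6.1 and Gli3 lists and 2 from the Nkx2.2 list. No annotation of mm9 was used here, so where in its window each gene starts and ends, and whether a peak is promoter, intron or intergenic, is not given.

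The series describes 13 libraries, 7 of them ChIP and 6 of them input (chromatin sequenced without precipitation). Nkx2.2, Nkx6.1 and Olig2 were each precipitated in 2 libraries from ventral progenitors, made from ES cells by 2 days in suspension and 3 days with 500 nM retinoic acid and 160 to 800 nM of the Smoothened agonist SAG, which switches on hedgehog signalling. The ventral cells carried a background mixed of Swiss Webster, 129 Sv and C57BL6/J. Replicate 1 of Nkx6.1 and of Olig2 came from the line YFP3.1, and replicate 1 of Nkx2.2 with replicate 2 of all ventral factors came from Rosa26-Gli1FLAG, a derivative of YFP3.1. Gli3 was precipitated in 1 library, through a 3xFLAG-Avi tag placed at its initiation codon in V6.5 cells (C57BL/6 X 129/sv), in progenitors that had retinoic acid but no SAG and are labelled dorsal. Factor, culture and line therefore cannot be told apart wherever Gli3 is set beside a ventral factor. Each line is an ES cell line differentiated in culture, and no transcript was measured, so the expression of the 4 genes in these cells is not known here.

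Motor neurons of the spinal cord arise from progenitors that express Olig2, a bHLH factor, together with Nkx6.1, a homeodomain factor. Nkx2.2, another homeodomain factor, marks the more ventral progenitors that give interneurons, and Gli3 is a zinc finger factor of hedgehog signalling that acts mostly as a repressor where the signal is low. Neurog2 is a proneural bHLH factor that starts neuronal differentiation. Isl1 and Lhx3 are LIM homeodomain factors that act in a common complex to set motor neuron identity, and Mnx1 (also called Hb9) is a homeodomain factor of postmitotic motor neurons. In the RefSeq annotation of GRCm38, a different build, the nearest neighbours listed as protein-coding are Zgrf1 and Alpk1 for Neurog2, Nom1 and Ube3c for Mnx1, Pelo and Parp8 for Isl1, and Tmem250-ps and Qsox2 for Lhx3. A peak in a window may therefore lie nearer to another gene than to the one the window is named for.

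The peak sequences could not be read without a genome of mm9, so the promoters of 3 of the genes are shown instead, taken from RefSeq on GRCm38. They are the promoter of Neurog2, whose window held the most peaks, and the 2 promoters in which a searched motif was found. Each runs over the 250 bases before a start site, 5′ to 3′ on the strand of the gene, and capitals mark a motif match.

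Neurog2, chr3:127632886-127633135, GRCm38, + strand: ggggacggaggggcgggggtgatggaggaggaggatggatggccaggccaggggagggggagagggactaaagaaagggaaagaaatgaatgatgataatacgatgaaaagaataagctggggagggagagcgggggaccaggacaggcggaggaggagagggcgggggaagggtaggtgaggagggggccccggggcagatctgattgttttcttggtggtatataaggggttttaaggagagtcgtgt

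Mnx1, chr5:29478471-29478720, GRCm38, - strand: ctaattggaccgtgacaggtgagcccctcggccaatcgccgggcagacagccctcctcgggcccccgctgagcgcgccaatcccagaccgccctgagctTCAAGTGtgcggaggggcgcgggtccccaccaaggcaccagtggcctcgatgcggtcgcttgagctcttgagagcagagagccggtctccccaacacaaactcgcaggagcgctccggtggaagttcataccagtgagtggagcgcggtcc

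Lhx3, chr2:26206576-26206825, GRCm38, - strand: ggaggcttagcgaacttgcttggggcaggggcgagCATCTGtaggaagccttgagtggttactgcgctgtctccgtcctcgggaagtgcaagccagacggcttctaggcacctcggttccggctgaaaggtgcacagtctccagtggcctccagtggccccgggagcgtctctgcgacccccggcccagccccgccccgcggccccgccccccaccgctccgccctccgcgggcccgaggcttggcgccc

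RefSeq gives 5 promoters for the 4 genes, 2 of them for Lhx3. On both strands, 7 motifs were searched. The E-box CAGATG, a bHLH motif, was found as its reverse complement CATCTG in 1 of the 5, upstream of the Lhx3 start site shown, and in 14.4% of 32851 mouse promoters of this length. CACTTGA, of the kind bound by Nkx2 factors, was found as TCAAGTG in 1 of the 5, upstream of the Mnx1 start site, and in 2.68% of all promoters. The other motifs were in none of the 5. Another E-box (CATATG) was in 3.46% of all promoters, the homeodomain core TAATTA in 4.84%, the longer TTAATTA that contains it in 2.78%, a further Nkx2 motif (CACTTAA) in 2.10% and the Gli motif TGGGTGGTC in 0.225%. These promoter positions are on GRCm38 and cannot be set beside the peaks, which are on mm9, so a match says nothing of binding there.

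The 4 windows differed in how many peaks they held. Neurog2 was the only one with peaks of every factor, 8 in 350 kb, but its single Nkx6.1 peak falls outside when the window is narrowed by 25% of its length at each end, and then no window holds every factor. Lhx3 had 7 in 300 kb, 6 of them Olig2. Isl1 had 2 in 400 kb, both Olig2, and Mnx1 had 1 in 400 kb, an Nkx6.1 peak. Nkx2.2 and Gli3 had no peak in the Mnx1, Isl1 and Lhx3 windows as drawn. With windows widened by as much, Nkx2.2 had 2 peaks at Mnx1 and 1 at Isl1, and Gli3 had 2 at Lhx3.

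To see how usual such counts are, each chromosome was divided into consecutive tiles of each window's length. Tiles ran from the start of the chromosome to the last whole tile before the last peak of any list. Stretches where no peak could be called were not left out, and any such stretch raises the share of empty tiles. At least 8 peaks of the 4 lists lay in 10.4% of the 7522 tiles of 350 kb, against which the Neurog2 window is set, and at least 7 lay in 11% of the 8776 tiles of 300 kb, the length of the Lhx3 window. At least 1 peak lay in 74% of the 6580 tiles of 400 kb, at least 2 lay in 60.4%, and 26.03% held none. The median over tiles of this length was 2 peaks, the count of the Isl1 window, and the Mnx1 window had 1. At least 1 Nkx6.1 peak, as at Mnx1, lay in 37.2% of these tiles, and at least 2 Olig2 peaks, as at Isl1, in 42.9% of them. Tiles of 400 kb without an Nkx2.2 peak made up 55.6%, and those without a Gli3 peak 81.4%. Among tiles of 300 kb these shares were 62.99% and 85.1%. An absence of Nkx2.2 or Gli3 from a window was thus the more usual case. At 400 kb, 62.8% of tiles had no Nkx6.1 peak, as at Isl1, and 35.9% had no Olig2 peak, as at Mnx1. The windows were not drawn at random, so these shares are a description and not a test.

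Both fuller windows stood out in 1 of the 4 lists only. The 3 Gli3 peaks of the Neurog2 window were matched or exceeded in 1.75% of tiles of 350 kb. Its 2 Nkx2.2 peaks were matched or exceeded in 18.3%, its 2 Olig2 peaks in 37.9% and its Nkx6.1 peak in 34.3%. The 6 Olig2 peaks of the Lhx3 window were matched or exceeded in 3.45% of tiles of 300 kb, and the Nkx6.1 peak there in 30.5%. Only 38 of 7522 tiles had at least as many peaks as the Neurog2 window in each of the 4 lists, and 250 of 8776 had at least as many as the Lhx3 window. The Lhx3 window had no Nkx2.2 or Gli3 peak, so every tile met the condition in these lists. Its count rests on Olig2 and Nkx6.1 alone and is not like that of Neurog2.

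**Figure D1:**
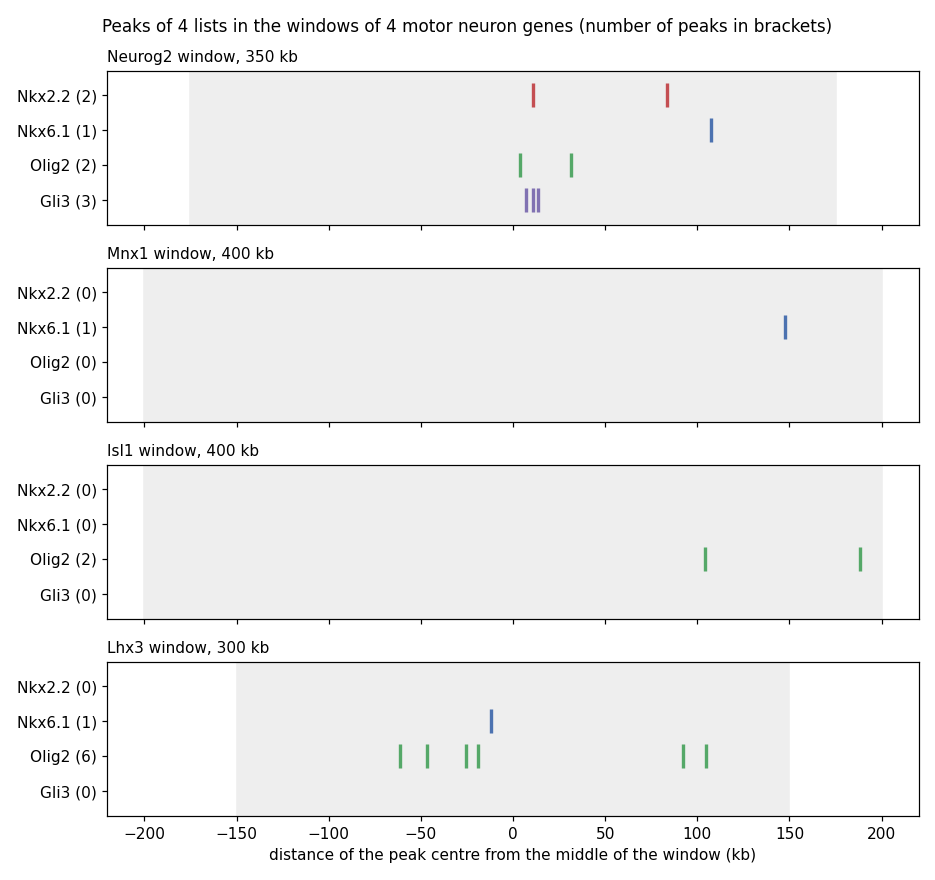
Position of each of the 18 peaks, as the distance of its centre from the middle of the window in kb, in 1 panel per gene and 1 row per factor, with the window in grey and the number of peaks in brackets. The 3 Gli3 peaks of the Neurog2 window sit together beside an Nkx2.2 and an Olig2 peak. The Lhx3 window holds 6 Olig2 peaks, and the Mnx1 and Isl1 windows hold 1 and 2 peaks.

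**Figure D2:**
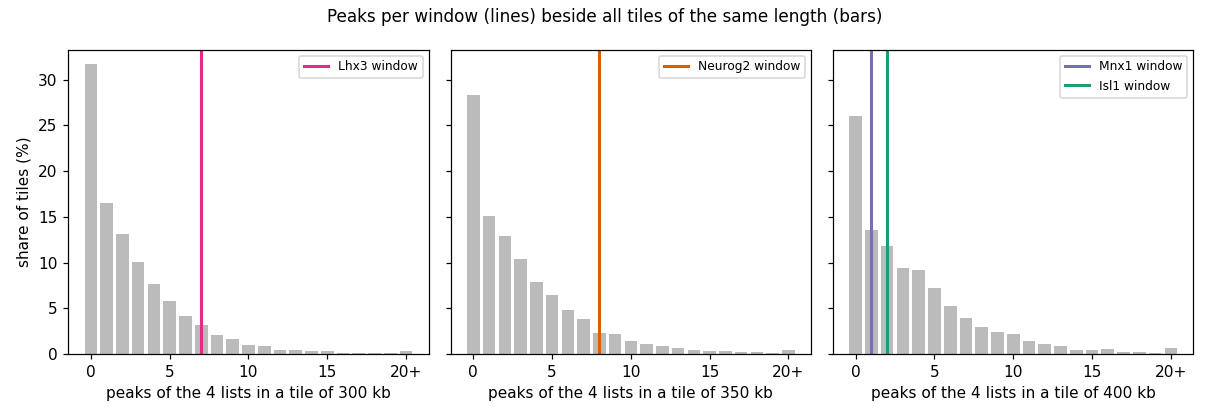
Share of tiles (%, bars) by the number of peaks of the 4 lists they hold, in 1 panel per tile length (300, 350 and 400 kb), with coloured lines at the count in each gene's window. The Lhx3 (7 peaks) and Neurog2 (8 peaks) windows lie in the upper tail, and the Mnx1 (1 peak) and Isl1 (2 peaks) windows in the crowded lower part.

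None of the 18 peaks shared a base with a peak of another list. Over the whole lists such sharing was common, at 36.3% of Gli3 peaks, 47.1% of Nkx6.1 peaks, 35.3% of Nkx2.2 peaks and 21.7% of Olig2 peaks. The share depends on which peaks are counted. Of Nkx6.1 peaks whose block 1 coverage (explained further on) was no higher than that of the strongest Nkx6.1 peak in the windows, 33.7% were shared, and of Olig2 peaks under the same limit, 14%. With 2, 3, 10 and 3 peaks per list, an absence of sharing is a small count set beside these shares, and it was not tested.

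Centres of different factors came nearest to each other in the Neurog2 window, where the Gli3 and Nkx2.2 peaks were 480 bp apart. The 10 Olig2 peaks lay a median of 42.3 kb from the nearest peak of another list (2.95 to 291.9 kb), against 31.7 kb over the Olig2 list. The 3 Nkx6.1 peaks lay 7.48, 23.6 and 114.985 kb from one, against a median of 0.637 kb over the Nkx6.1 list. Of that list 47.1% shared a base with a peak of another list, and none of these 3 did. Their longer distance thus partly restates the absence of sharing. The 10 Olig2 peaks lay a median of 14.8 kb from the nearest Olig2 peak, inside or outside the window, against 37.7 kb over the list. This distance was 6.20 to 14.8 kb for the 6 peaks at Lhx3 and 17.3 to 83.6 kb for the 4 at Neurog2 and Isl1.

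Coverage was deposited around the peaks of the 3 ventral factors, in 3 blocks of columns per table that name no library. Values are in the authors' units, averaged within 250 bp of the peak centre, and a percentile is the share of peaks in the same table with lower coverage. Depth per library is unknown, no label says which blocks are replicates, and units were not compared between tables. The exception is block 3 of the Nkx6.1 and Olig2 tables. At all 71 pairs of an Nkx6.1 and an Olig2 peak whose bins fall on the same positions, the values of block 3 were identical to within 1e-06, and in blocks 1 and 2 none of the 71 pairs were. Block 3 of both tables is thus 1 library on 1 scale, and the labels name 1 sample for both tables, the input of replicate 2.

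At Neurog2, 5 of the 8 peaks lay within 9397 bp. From left to right these were an Olig2 peak (127328777 to 127329076), a Gli3 peak (127331726 to 127332025), a 2nd Gli3 peak (127335471 to 127335770), an Nkx2.2 peak (127335951 to 127336250) and a 3rd Gli3 peak (127338174 to 127338473). The gaps between successive centres were 2949, 3745, 480 and 2223 bp. Further right came an Olig2 peak (127356133 to 127356432), the other Nkx2.2 peak (127408659 to 127408958) and the Nkx6.1 peak (127432237 to 127432536).

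The 3 Gli3 peaks lay close together and far from any other Gli3 peak. They spanned 6448 bp from the first centre to the last, while the next Gli3 peaks lay 5301512 bp before the window and 1407775 bp after it. Of all 1888 Gli3 peaks, 4.93% had at least 2 further Gli3 peaks within 10 kb, as each of these 3 did. This comparison was not among the planned ones. It concerns the same 3 peaks as the share of tiles given above, so it is not separate support. Coverage around Gli3 peaks was not analysed here. From left to right, 21.2%, 74.4% and 14.04% of the lines of the Gli3 list came before these peaks. In the ventral lists the line number ran against block 1 coverage (Spearman's rho from -0.827 to -0.928 over 4094 to 11747 peaks of 1 library set, a description), and whether the Gli3 list is ordered in the same way is not given.

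The Nkx2.2 peaks of the Neurog2 window differed sharply in strength. The right one (peak 2) had 73.4, 23.5 and 1.01 units in blocks 1, 2 and 3, at percentiles 97.7, 97.7 and 40.7 of the Nkx2.2 table. The left one (peak 1), beside Gli3, had 19.6, 2.21 and 1.86 units in blocks 1, 2 and 3, at percentiles 55.6, 14.6 and 74.02. Peak 2 was thus among the strongest Nkx2.2 peaks of the series in both high blocks, and peak 1 was of middling coverage in block 1 and low in block 2. Over the 5551 Nkx2.2 peaks the medians were 18.4, 4.43 and 1.1995 units. On the log2 scale with a pseudocount of 1, the centre of peak 2 exceeded its flank (the outermost 250 bp on each side) by 6.22 in block 1 and 3.94 in block 2, and that of peak 1 by 3.50 and 0.41. The block 1 flank of peak 2 was only 1.6e-14 units, so its 6.22 was set by the centre and the pseudocount.

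The profile of peak 1 had several summits. In block 1 the highest bin, 62.2 units, lay 25 bp left of the centre, with lower summits of 23.2 units on the left, near the Gli3 centre, and 12.8 units on the right. In block 2 the highest bin of the middle 1000 bp, 5.85 units, lay 500 bp to the left of the centre and a further summit of 4.88 units lay on the right. The neighbouring Gli3 centre is at 480 bp to the left. Within 50 bp of that Gli3 centre the Nkx2.2 table had 17.3, 5.24 and 1.53 units in blocks 1, 2 and 3, against 50.1, 3.61 and 1.81 within 50 bp of the Nkx2.2 centre. Block 2 was therefore higher at the Gli3 centre than at the Nkx2.2 centre, the reverse of block 1. Peak 2 had 1 dominant summit, of 187.6 units in block 1 and 46.8 units in block 2. In block 1, at 350 bp or more from the centre, it was flanked on both sides by flat steps of up to 12.8 units. What made these steps was not tested. Block 3 was raised at peak 1 and at the Gli3 centre too, where its 1.53 units compare with 0.567 in the flank of peak 1. For block 2 the 5.24 units there compare with a flank of 1.42. The part of block 3 in either place was not tested.

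**Figure D3:**
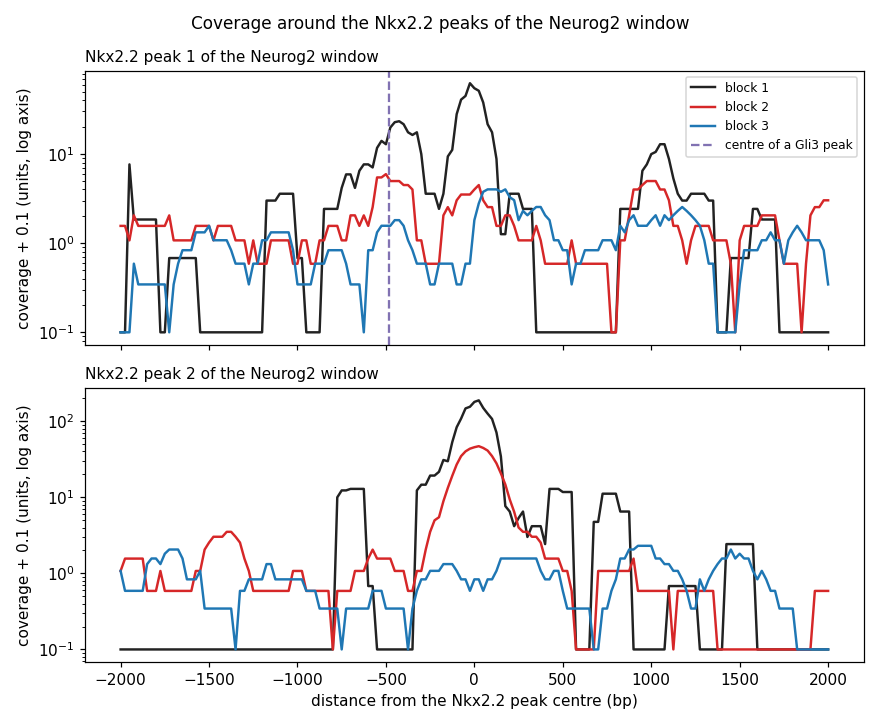
Coverage plus 0.1 (units, log axis) against distance from the centre (bp) for both Nkx2.2 peaks of the Neurog2 window, with a line for each of 3 blocks and a dashed line at the centre of the neighbouring Gli3 peak. At peak 1, blocks 1 and 2 both have a summit close to the Gli3 centre, which is the higher one in block 2. Block 3 is also raised there. At peak 2, blocks 1 and 2 have their highest point at 25 bp to the right of the centre.

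The other ventral peaks at Neurog2 were modest. Its left Olig2 peak, 2949 bp from the nearest Gli3 centre, had 10.8, 8.48 and 1.55 units in blocks 1, 2 and 3, and its right Olig2 peak had 9.41, 3.05 and 0.654 units. These stand at percentiles 47.2 and 37.1 in block 1 and at 50.3 and 11.7 in block 2. In block 3 the left one stood at percentile 93.5, so that it was raised in the library shared with the Nkx6.1 table as well. The Nkx6.1 peak had 10.6, 4.43 and 0.373 units, at percentiles 51.5, 42.1 and 21.7.

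At Lhx3, 4 Olig2 peaks and the Nkx6.1 peak lay within the left part of the group and 2 Olig2 peaks stood apart to the right. The left Olig2 peaks were at 25988403 to 25988702, 26003231 to 26003530, 26024452 to 26024751 and 26030655 to 26030954, and the Nkx6.1 peak at 26038139 to 26038438 was 7484 bp from the last of them. The right Olig2 peaks, at 26142134 to 26142433 and 26154378 to 26154677, were 12244 bp apart, and 103995 bp separated the first of them from the Nkx6.1 peak.

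The strongest peak of the Lhx3 window was the last Olig2 peak (peak 6). It had 11.7, 10.3 and 0.560 units in blocks 1, 2 and 3, at percentiles 52.2, 59.3 and 35.5 of the Olig2 table. Peak 3 had 9.52, 9.38 and 1.53 units, at percentiles 37.9, 54.99 and 92.97. The other 4 were weaker, from 5.03 to 7.03 units in block 1 and from 2.87 to 5.01 units in block 2. The weakest, peak 1, was at percentile 1.69 in block 1, and in block 2 its highest bin of 8.89 units lay 450 bp to the right of the centre. Thus 6 Olig2 peaks, more than in most tiles of this length, came with coverage that was at or below the middle of the Olig2 list in block 1 in 5 of them, and only just above it in the sixth.

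The Nkx6.1 peak of the Lhx3 window had 9.04, 5.45 and 1.68 units in blocks 1, 2 and 3. Its block 3 value was at percentile 96.6 of the Nkx6.1 table, while blocks 1 and 2 were at percentiles 38.7 and 52.5. Of the peaks in the Nkx6.1 and Olig2 tables that lie in the windows, it had the highest coverage in the shared block 3 library. The part of that library in this peak was not tested.

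Isl1 and Mnx1 had fewer peaks than the other windows, of low to middling coverage. The Isl1 window held Olig2 peaks at 117204223 to 117204522, with 7.66, 5.86 and 0.710 units in blocks 1, 2 and 3, and at 117287845 to 117288144, with 8.69, 5.21 and 1.27 units. In block 1 these are percentiles 21.95 and 31.2. The second lies 12006 bp inside the right edge of the window, and a further Olig2 peak lies 5339 bp beyond that edge. The only peak of the Mnx1 window, of Nkx6.1 at 29947269 to 29947568, had 9.39, 7.14 and 0.317 units, at percentiles 41.7, 65.97 and 15.7. It lay 147.4 kb right of the middle of the window, 1062400 bp from the next Nkx6.1 peak and 114.985 kb from the nearest peak of any other list. Olig2 had no peak in the Mnx1 window, as in 35.9% of tiles of 400 kb, the nearest one lying 48326 bp before it.

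**Figure D4:**
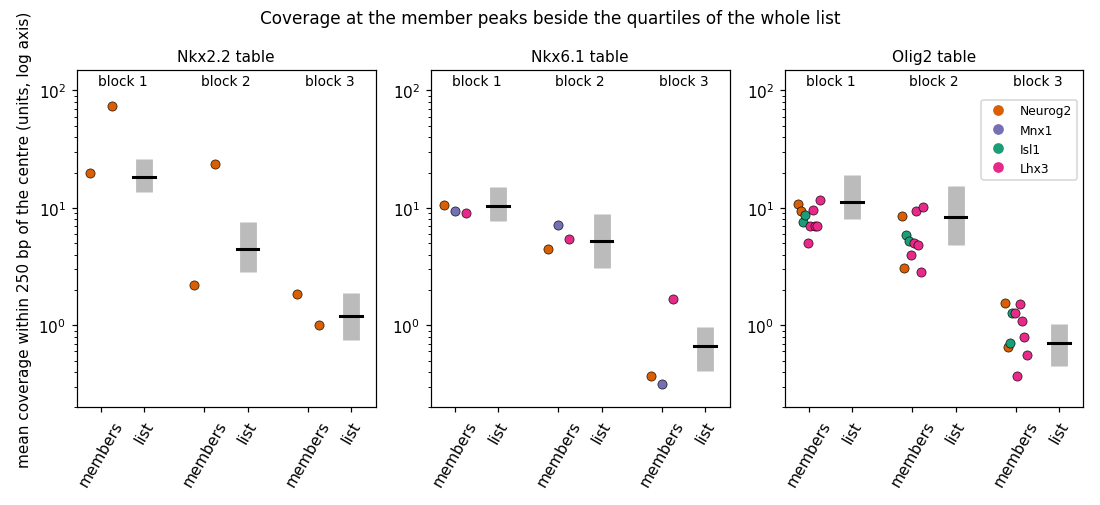
Mean coverage within 250 bp of the centre (units, log axis) for each peak in the windows (points, coloured by gene) beside the whole list (grey bar from lower to upper quartile, black line at the median), by block, in 1 panel per table. The Olig2 points lie mostly below the list's median in blocks 1 and 2 and mostly above it in block 3, and of the Nkx2.2 points one is far above the quartiles in both high blocks.

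The 10 Olig2 peaks had a lower median coverage than the list they came from in blocks 1 and 2. Their lowest, median and highest values in block 1 were 5.03, 8.17 and 11.7 units, and the median over 11747 Olig2 peaks was 11.3 units. In block 2 they were 2.87, 5.11 and 10.3 units, and the list's median was 8.44. The order was the other way in block 3, at 0.373, 0.943 and 1.55 units with a list median of 0.710. Below the list's median stood 9 of the 10 in block 1, 7 in block 2 and 3 in block 3. Their median log2 ratio of centre over flank was 2.53 in block 1 and 2.25 in block 2, against 3.05 and 2.66 over the list.

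The 3 Nkx6.1 peaks, 1 each at Neurog2, Mnx1 and Lhx3, had similar centre coverage in block 1, near the middle of their list, and differed in block 3. Their block 1 values spanned 9.04 to 10.6 units, against a list median of 10.4, and their block 2 values 4.43 to 7.14 units, against 5.19. In block 3 they were 0.373, 0.317 and 1.68 units in the order of the genes just given, against 0.672. Their median log2 ratio was 2.35 in block 1 and 2.00 in block 2, against 2.90 and 2.07 over the list. Over all 15 ventral peaks, 11 stood below the median of their own list in block 1, 9 in block 2 and 6 in block 3.

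Peak shape was described by the highest bin within 500 bp of the centre and the width around it. A highest bin near the centre may follow from how peaks were centred, which is not given. No such count was taken over the whole lists, so none of these values is shown to be particular to these peaks. In block 1 the highest bin lay within 75 bp of the centre in each of the 15 peaks, and the width over which coverage stayed above 50% of it ran from 150 bp, at Nkx2.2 peak 1 of Neurog2, to 450 bp, at the Nkx6.1 peak of Mnx1. In block 2 the highest bin was displaced by 500 bp at that Nkx2.2 peak and by 450 bp at Olig2 peak 1 of Lhx3, and by at most 150 bp at the other peaks.

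**Figure D5:**
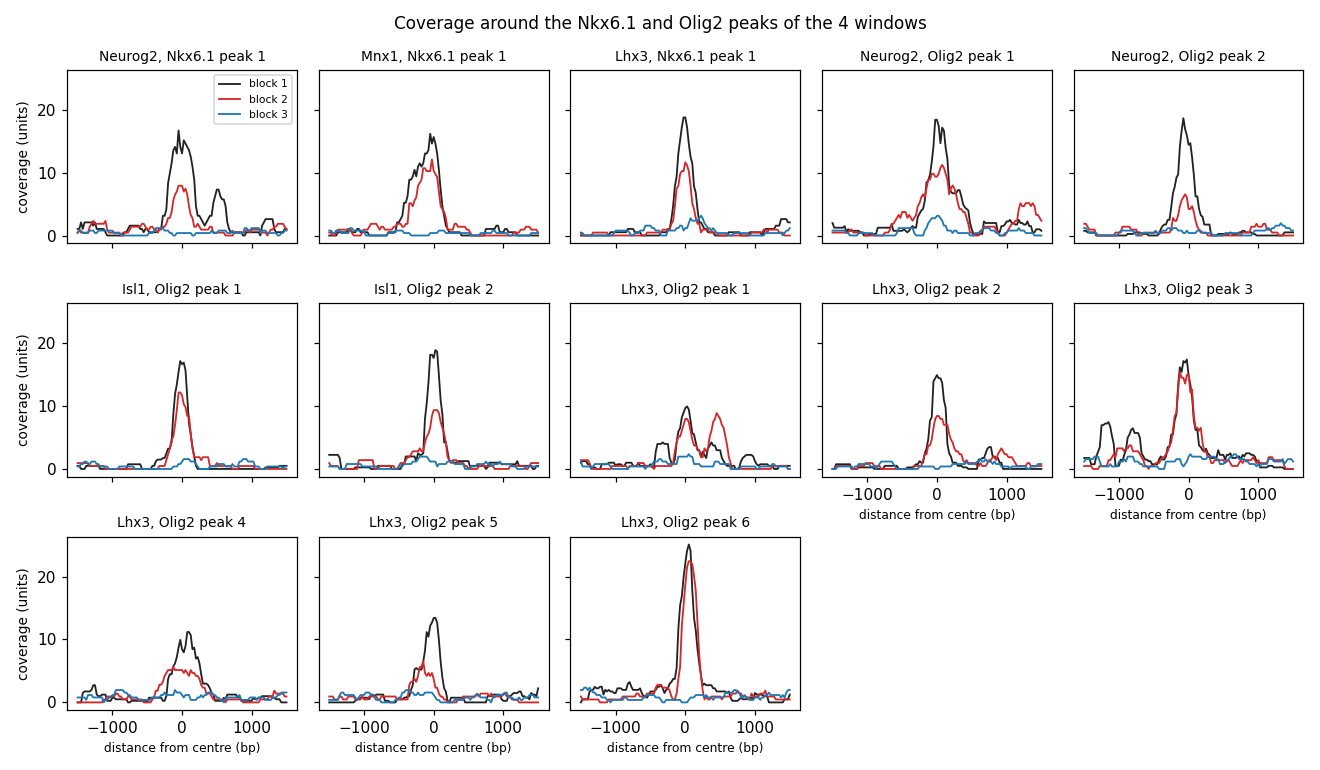
Coverage (units) against distance from the centre (bp) for the 3 Nkx6.1 and 10 Olig2 peaks of the windows, 1 panel per peak and 1 line per block. Blocks 1 and 2 have a summit near the centre in nearly every panel and block 3 stays low, while Olig2 peak 1 of Lhx3 has its highest block 2 bin 450 bp to the right.

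The edges of the windows decide some of the counts. Just beyond the right edge of the Lhx3 window lay a Gli3 peak, by 7528 bp, and an Olig2 peak with 8.48 units in block 1, by 7897 bp. The outermost peak inside that edge, Olig2 peak 6, was 45473 bp from it. An Nkx2.2 peak with 26.7 units in block 1 lay 22099 bp before the Isl1 window. In the Neurog2 window the peak nearest to an edge was the Nkx6.1 peak, 67614 bp inside, and in the Mnx1 window the only peak was 52582 bp inside. With windows widened by 25% of their length at each end, the 4 windows held 14, 5, 5 and 11 peaks (Neurog2, Mnx1, Isl1 and Lhx3), and narrowed by as much they held 7, 0, 0 and 5. The 3 Gli3 peaks of the Neurog2 window were counted in both cases.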

How the data were processed

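The authors deposited 4 peak lists as chromosome, start and end, every peak 300 bp wide and without a score, and 3 coverage tables that reach 2000 bp to each side of a peak centre in steps of 25 bp, per the file headers, in 3 blocks of columns with no library named. HOMER, Bowtie2 (version 2.2.4) and mm9 appear in the submitters' processing notes, without their roles. Settings, scaling, pooling and depth are not given in the sources used here, so depth is unknown. Row and peak were matched by line number. For the Nkx6.1 and Olig2 tables this was checked by block 3 values at shared positions. These were identical in 71 of 71 pairs, and in 0 with rows moved by 1. The Nkx2.2 table was not checked in this way. Columns of other samples numbered 0.

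Peaks were assigned to 4 windows by their centre and printed 1-based. Peaks were shared when they overlapped by at least 1 bp. The level of a peak is its mean coverage out to 250 bp from the centre, and its flank is the outermost 250 bp on each side. There was 1 list per factor, so no test between cultures was made. Every peak in a window is named or counted. Functions were tested on simulated data. The windows and lists were chosen with earlier results of these data known. Planned comparisons of shared with single peaks, of peak sequences and of score thresholds were not run, as no peak in the windows was shared and no mm9 genome or score was at hand. Python 3.11.15, numpy 2.4.6 and pandas 2.3.3 were used.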

Additional observations from a re-analysis of the deposited data

How the results depend on the processing

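Counts in the windows moved with their edges. Widened by 25% at each end, the windows of Neurog2, Mnx1, Isl1 and Lhx3 held 14, 5, 5 and 11 peaks, against 8, 1, 2 and 7 as given, and narrowed, the Mnx1 and Isl1 windows held 0 and 0 and the Neurog2 window lost its Nkx6.1 peak. No peak in the windows met one of another list by 1 bp or with centres within 100 bp, and 2 did with centres within 1000 bp, the Gli3 and Nkx2.2 peaks of Neurog2. With a pseudocount of 0.1 the log2 ratio of centre over flank was 9.52 at Nkx2.2 peak 2 in block 1, and the medians were 3.09 and 3.18 for Nkx6.1 and 3.45 and 3.42 for Olig2 in blocks 1 and 2. Averaged within 100 bp, the Nkx6.1 medians were 3.06 and 2.55, and 20 of the 45 coverages at the centre moved by over 1.5 times (9 of 15 in block 1, 7 in block 2 and 4 in block 3). Nkx2.2 peak 2 then had 137.9 units in block 1 and 39.7 in block 2, against 73.4 and 23.5, and Nkx2.2 peak 1 had 39.8 units in block 1, against 19.6. A smaller pseudocount raises a log2 ratio above 0 by construction, and the cause of the changes with the narrower centre was not tested. Ranked by block 2, Nkx2.2 peak 1 stood at percentile 14.6 and the Nkx6.1 median at 52.5, and ranked by log2 ratio in block 1 the Nkx6.1 median stood at 20.7; the cause was not tested. No replicate could be left out, and no paired analysis was possible, because the blocks carry no replicate number and each factor has 1 list. The ventral lists were deposited with the replicate 1 samples, and whether replicate 2 entered them is not given. With 2 to 10 peaks per list and depth unknown, small differences in coverage cannot be resolved.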

Other observations

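Both Gli3 and Olig2 had a peak just beyond the right edge of the Lhx3 window, on chromosome 2 at 26207379 to 26207678 and 26207748 to 26208047. They shared no base, and their centres lay 7528 and 7897 bp past the edge.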
